A study of Homo sapiens with 12 samples.

Results

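The m6A peaks described here were called in HSC3 and matched in CAL33 under 1 treatment, and the HSC3 peak overlapped no peak of either line under the other. Peaks of HSC3 cells treated with rapamycin were kept when they overlapped a peak of rapamycin-treated CAL33 cells and no peak of control HSC3 or CAL33 cells, and they are called rapamycin-specific. Control-specific peaks were kept by the mirror rule. An overlap was at least 1 bp of exonic sequence on the same strand. The rule sets no condition on the matched CAL33 peak, which overlapped a peak of the other treatment in either line for 20 of 259 rapamycin-specific (7.72%) and 32 of 336 control-specific peaks (9.52%). The rule gave 595 peaks among the 7882 peaks of both HSC3 lists, and 14586 peaks were listed over the whole series. Of these, 259 were rapamycin-specific, on 249 genes, and 336 were control-specific, on 317 genes. The members were thus chosen by the authors' peak calls under both treatments, so the positions and enrichments of the peaks are a description and were not tested.

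N6-methyladenosine (m6A) is placed on mRNA by a writer complex built around METTL3 and METTL14, with WTAP, VIRMA and RBM15 or RBM15B as further subunits. FTO and ALKBH5 can remove it, and YTH-domain proteins read it and influence the decay, export or translation of the mRNA. The mark is commonly found on adenosines within GGAC-like sequence, often in long exons and near the stop codon. Rapamycin inhibits mTORC1, a kinase complex that promotes translation and growth and restrains autophagy.

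HSC3 and CAL33 are established human oral squamous cell carcinoma (OSCC) lines. For MeRIP-seq, in which fragmented RNA is enriched with an antibody against m6A and compared with its input, cells of each line received 100 nM rapamycin for 3 days or no rapamycin, and each line and treatment gave 1 IP and 1 input library. The 8 libraries thus gave 4 peak lists with no replicate within a line, and absence from a list means only that no peak was called there. RNA-seq comprised 2 rapamycin and 2 control libraries with 18492273 to 23763098 counts each. In the RNA-seq labels HSC3 is given for both rapamycin libraries and CAL33 for both controls, whereas in MeRIP-seq number 1 marks HSC3 and number 2 CAL33 in each treatment. If the RNA-seq labels hold, treatment and line cannot be told apart. Across 15826 genes, log2 CPM (counts scaled to the library total by edgeR) correlated at r = 0.97 and 0.957 between libraries of the same number and at 0.81 to 0.856 between the others, including 0.816 between the rapamycin libraries. Nothing states that the libraries came from separate cultures, so p-values measure only the spread between these samples. Within a treatment that spread includes the difference between numbers 1 and 2, and the rest may be technical.

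Of 8 squamous epithelial markers, 6 reached 1 CPM in every library, and their summed level was 904 and 1082 CPM in the libraries numbered 1 and 3325 and 4764 CPM in those numbered 2. All 5 immune markers stayed under 1 CPM. The fibroblast sum was 8.75 to 48 CPM, with 3 of 6 markers at no count, and the endothelial sum was 30.7 to 44.1 CPM in the libraries numbered 2, mainly from *CDH5*, and 1.46 to 1.71 CPM in those numbered 1.

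Sequence was at hand only for the bases around annotated gene starts (RefSeq, GRCh38.p14), which 6 of 204 rapamycin-specific and 2 of 250 control-specific peaks with such a window reached. These peaks lie on *LOX*, *TLNRD1*, *DDR1*, *TMEM44-AS1*, *RABGEF1* (listed under 2 identifiers), *GPBP1* and *FEN1*. GGAC was searched on the RNA strand and, as GTCC, on the opposite strand. It was found on the RNA strand only in *TMEM44-AS1*, an antisense RNA with a rapamycin-specific peak at chr3:194584158-194584335 (+ strand) and fold enrichments of 27.3 in HSC3 and 93.8 in CAL33. The 160 bases of that peak inside the window held 3 GGAC on the RNA strand and 1 on the other. Of 35116 start windows taken at the same offsets, 45.8% held GGAC on the RNA strand and 69.5% on either strand, so the motif is common at these offsets. mRNA of *TMEM44-AS1* was 10.9 and 7.13 CPM in rapamycin replicates 1 and 2 and 5.91 and 5.96 CPM in the controls, with no overlap of the groups and no call with or without the block. The 2 stretches are printed because they show the letters under a peak called in both lines. The first is at chr3:194584202-194584231 and the second at chr3:194584251-194584280, both on the + strand, both inside the HSC3 and the CAL33 peak, with GGAC in capitals. Relative to the annotated start, the first covers offsets -66 to -37 and the second -17 to 12. All 3 GGAC lie upstream of that RefSeq start, whereas the authors' list annotates the peak over them as exon.
TMEM44-AS1 upstream stretch: cccccgactctggGGACtGGACcgaagtcc
TMEM44-AS1 start stretch: gaccctgaggagaGGACgagaagacccgag

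Of the 3952 peaks in the list for HSC3 with rapamycin, 6.55% were rapamycin-specific (5.82 to 7.37%, 95% Wilson interval), and of the 3930 in the list for control HSC3, 8.55% were control-specific (7.72 to 9.46%). These intervals cover counting error only. Most HSC3 peaks were in no other list, at 2053 (51.9%) with rapamycin and 2099 (53.4%) without. Overlap with the other treatment of the same line alone was found for 419 and 418 peaks. Overlap with the other line under the other treatment alone, a pattern that follows neither treatment nor line, was found for 359 HSC3 rapamycin peaks (9.08%) and 232 HSC3 control peaks (5.9%). The crossed pattern was therefore more frequent than the treatment-specific one in the rapamycin list and less frequent in the control list. The CAL33 lists differed in size, with 3079 peaks with rapamycin and 3625 without. In each HSC3 list, the more frequent of these patterns was the one that overlapped the larger CAL33 list. The part of list size in these counts was not tested. Peaks found in all 4 lists numbered 325 and 304.

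**Figure D1:**
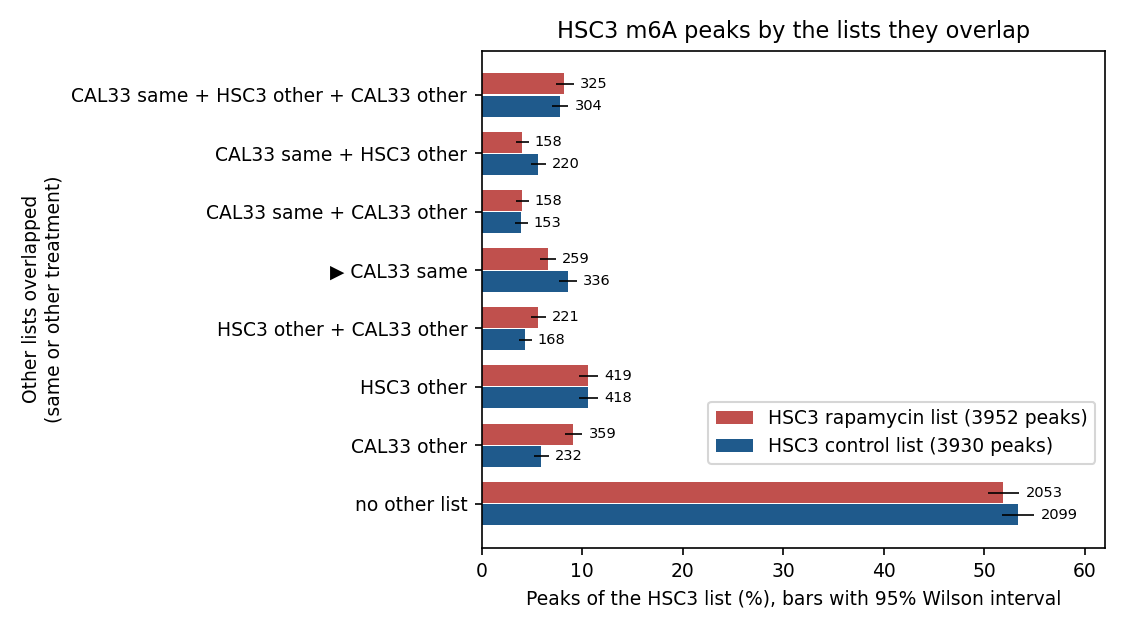
Share of the HSC3 rapamycin and HSC3 control peaks (horizontal axis, percent, with 95% Wilson intervals and the number of peaks beside each bar) by the other peak lists they overlap. The arrow marks the treatment-specific peaks, 259 and 336, which sit beside the crossed class of 359 and 232 peaks and far below the 2053 and 2099 peaks in no other list.

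Some of the peaks are repeats of 1 place. Joined on either strand, the 259 rapamycin-specific peaks made 241 loci and the 336 control-specific peaks 321 loci. In 8 and 16 peaks the same enrichment was listed at the same place on the opposite strand, as for *CD72* (- strand) and *TESK1* (+ strand), both at 145 in HSC3 and 139 in CAL33. For such overlapping genes the lists do not show which transcript carried the reads. *ITPRIPL2*, *OXLD1*, *COMMD5* and *RCC2* were each listed more than once within a few bases. More than 1 CAL33 peak was matched by 23 rapamycin-specific and 16 control-specific peaks, and the enrichment given is then that of the match with the largest overlap. A CAL33 peak was shared with another member by 31 rapamycin-specific and 18 control-specific peaks, as in *TOPORS*, *SERTAD3*, *CITED4*, *NR2F6* and *PHRF1*.

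Fold enrichment, the ratio of IP to input in the authors' lists, had a median of 31.2 (range 2.16 to 623) in HSC3 and 36.2 (1.69 to 689) in CAL33 for rapamycin-specific peaks. Control-specific peaks had medians of 33.4 (1.52 to 1350) and 54.5 (1.14 to 1800). The peaks lay in the middle of their lists, with median percentiles of 47.5 and 48.9 in HSC3 and 50.2 and 55.2 in CAL33. Across sites, the enrichments in HSC3 and CAL33 were weakly related, with Spearman's rho of 0.17 over 259 and 0.24 over 336 peaks. The sites are not independent replicates and share the assay and the caller. The false discovery rate given by the authors was at most 0.05 in both lines for 213 and 298 peaks. The overlap between lines covered a median of 85.8% and 83.3% of the shorter peak. Its lowest value was 1 bp in each group, as for *ARID1B* and *YTHDF3* with rapamycin and *RPS6KB1* and *HES1* without it. Such peaks of the 2 lines meet only at their ends and need not mark 1 site. Median exonic length was 210 bp in each group and 300 bp for the 304 HSC3 control peaks in all 4 lists.

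**Figure D2:**
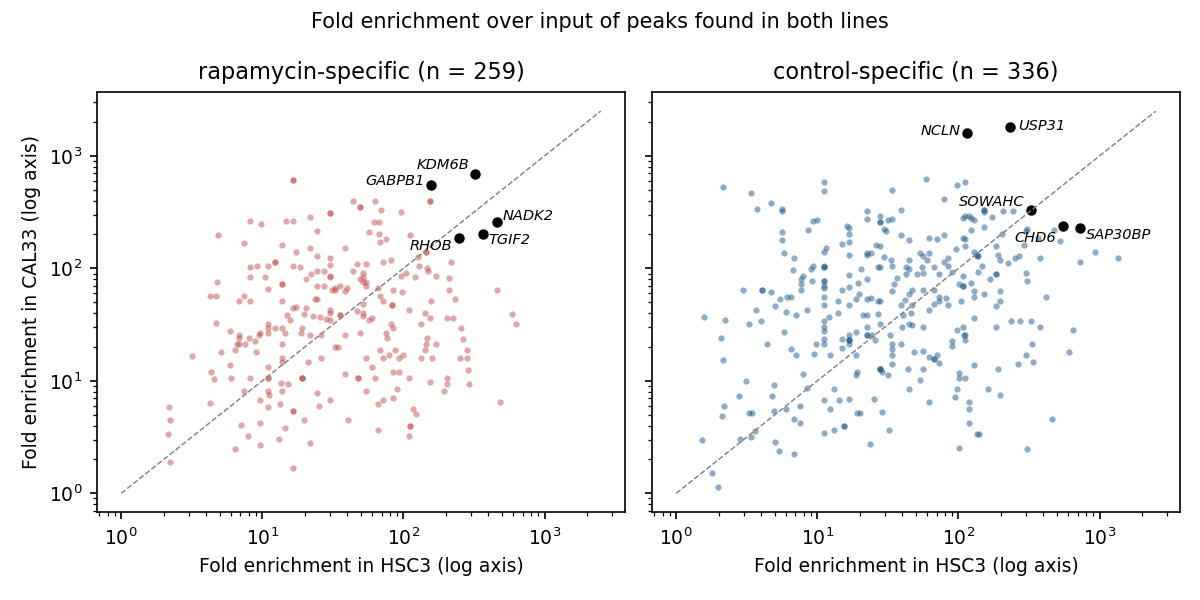
Fold enrichment over input in CAL33 (vertical) against HSC3 (horizontal), both on log axes, with 1 point per rapamycin-specific (left, n = 259) or control-specific peak (right, n = 336); the dashed line marks equal values. The points scatter widely about the line (Spearman's rho 0.17 and 0.24), with *KDM6B* at 324 and 689 and *SOWAHC* at 327 and 328.

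In class, the rapamycin-specific peaks comprised 121 in coding sequence (CDS; 46.7%, 95% Wilson interval 40.7 to 52.8%), 77 in 3′UTRs (29.7%, 24.5 to 35.6%), 50 annotated only as exon (19.3%, 15 to 24.5%) and 11 in 5′UTRs (4.25%, 2.39 to 7.44%). The control-specific peaks comprised 153 in CDS (45.5%, 40.3 to 50.9%), 125 in 3′UTRs (37.2%, 32.2 to 42.5%), 51 annotated as exon (15.2%, 11.7 to 19.4%) and 7 in 5′UTRs (2.08%, 1.01 to 4.24%). CDS peaks made up 41.4% and 41.3% of the whole HSC3 lists and 3′UTR peaks 35.7% and 35.4%. The 3′UTR share of the rapamycin-specific peaks was the lowest of the compared sets, but its interval overlapped that of the control-specific peaks. The class was the same in both lines for 247 and 315 peaks. Protein-coding genes carried 94.6% and 95.5% of the peaks, and antisense RNAs carried 6 and 10.

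**Figure D3:**
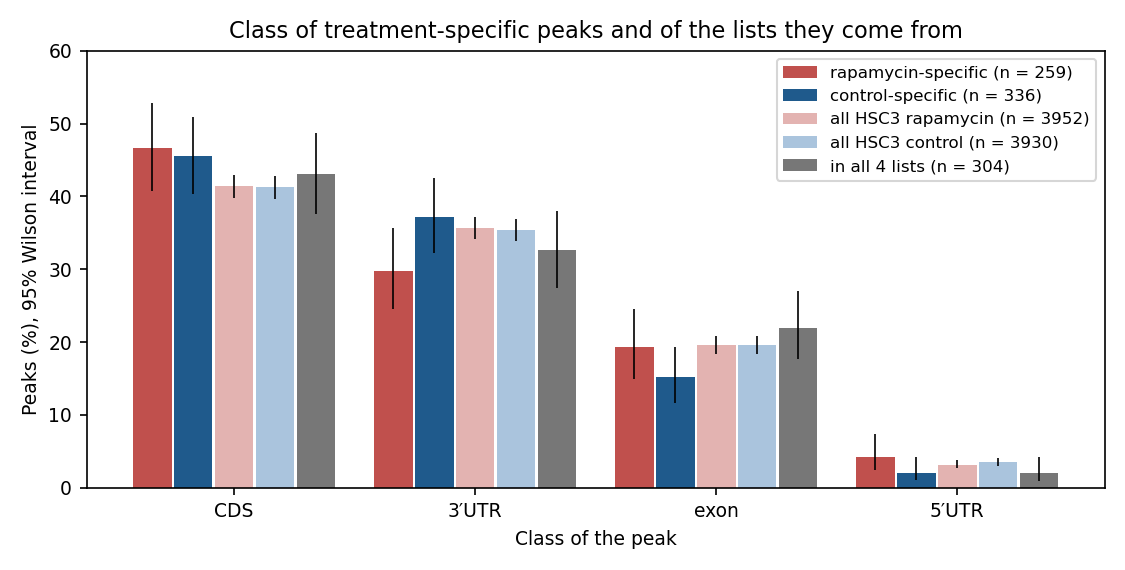
Share of peaks (vertical axis, percent, with 95% Wilson intervals) in each annotated class for the treatment-specific peaks, the HSC3 lists they come from and the 304 peaks in all 4 lists. CDS is the most frequent class in each set, and the 3′UTR bar is 29.7% for rapamycin-specific and 37.2% for control-specific peaks.

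A peak of the other treatment was often close by. Distances are from the HSC3 peak. The nearest one lay within 200 bp for 51 rapamycin-specific (19.7%) and 68 control-specific peaks (20.2%), and within 1000 bp for 100 and 135. The median distance was 16414 and 6390 bp. At the limit of the rule, the nearest peaks just inside were those of *NGRN* (6 bp), *MED1* (28 bp) and *OXLD1* (28 bp) with rapamycin, and of *FOXM1* (28 bp), *SNAI2* (29 bp) and *ARHGEF5* (29 bp) without it, where 16 control-specific peaks in all lay at exactly 29 bp. Just outside, *THUMPD1*, *JUND* and *C9orf3* with rapamycin and *IL4R*, *MFN2* and *CHSY1* without it overlapped a peak of the other treatment by 1 bp. No peak of the other treatment was found anywhere on the gene for 115 rapamycin-specific (44.4%) and 147 control-specific peaks (43.8%). The remaining 144 and 189 peaks were on a gene that had a peak of the other treatment elsewhere.

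Among rapamycin-specific peaks, the highest smaller enrichment of both lines was on *KDM6B*, which encodes a histone H3K27 demethylase. Its peak lay in CDS at chr17:7849043-7849343 (hg38, + strand) with enrichments of 324 in HSC3 and 689 in CAL33, and no control peak was found on the gene. The 3′UTR peak of *NADK2*, a mitochondrial NAD kinase, at chr5:36194839-36195109 had 457 and 257, with a control peak 1377 bp away. A CDS peak of *TGIF2*, a homeobox repressor of TGF-β signalling, at chr20:36591090-36591358 had 364 and 201, and no control peak lay on the gene. *RHOB*, a small GTPase, had an exon peak with 247 and 185, but a control peak lay only 58 bp away. The other leading genes were *GABPB1*, a subunit of the transcription factor GABP (156 and 555), *ITPRIPL2* (153 and 394, with a CAL33 match that overlapped control peaks), *CD72* and *TESK1* (145 and 139 each, at 1 place), *PARP8* (126 and 126) and *KMT5B*, a histone H4K20 methyltransferase (219 and 115).

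Control-specific peaks were led by *SOWAHC*, with a CDS peak at chr2:109615438-109615647 (+ strand) and enrichments of 327 in HSC3 and 328 in CAL33. The HSC3 peak lay 148 bp from a rapamycin peak, and the CAL33 peak overlapped a rapamycin peak of HSC3. *CHD6*, a chromatin remodeller, had an exon peak with 550 and 237, and its CAL33 peak too overlapped a rapamycin peak of HSC3. The exon peak of *SAP30BP* (729 and 230) and the 5′UTR peak of *LHX1*, a homeobox gene (477 and 221), had no rapamycin peak on the gene. *USP31*, of the ubiquitin-specific protease family, had 230 and 1800 in CDS, and *PAQR4* 308 and 226 in its 3′UTR. *RBBP8NL* (303 and 217) and *DDN* (202 and 204) had CDS peaks. *AC104581.4* (243 and 321) and *CYB5D1* (207 and 321) were listed over the same 3′UTR sequence and matched the same CAL33 peaks, which were annotated as CDS.

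Genes of the m6A machinery carried peaks of both kinds. *VIRMA*, a scaffold of the writer complex, had a rapamycin-specific CDS peak (7.42 and 56.3) and a control-specific CDS peak (46.7 and 63.8). *RBM15* had a rapamycin-specific CDS peak (6.89 and 25.5) and its paralogue *RBM15B* a control-specific exon peak (15 and 166); both proteins bring the writer to its RNA. The reader *YTHDF3* had a rapamycin-specific CDS peak (62.9 and 397), whose CAL33 match shared only 1 bp with it and overlapped a CAL33 control peak. In all, 3 of 22 listed m6A genes had a rapamycin-specific and 2 a control-specific peak, and 18 of the 22 had a peak in any list. For comparison, of all 6163 genes with a peak in any list, 249 had a rapamycin-specific and 317 a control-specific one. The counts of this and the other gene lists were not tested against these shares. For *VIRMA*, mRNA was 71.5 and 85 CPM in rapamycin replicates 1 and 2 and 103 and 118 CPM in the controls, lower with rapamycin in both pairs but short of the threshold with and without the block.

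Of 42 mTOR pathway genes, *PIK3CA* and *RRAGC* had a rapamycin-specific peak and *RPS6KB1*, *AKT2* and *RRAGC* a control-specific one. *RRAGC* encodes a Rag GTPase that recruits mTORC1 to the lysosome. Its control-specific 3′UTR peak (527 and 175) and its rapamycin-specific 3′UTR peak (21 and 14.7) lay at different places in HSC3, and the CAL33 match of the former overlapped a rapamycin peak of HSC3. *RPS6KB1*, the S6 kinase downstream of mTORC1, had a control-specific 3′UTR peak (82.2 and 54.3) and no rapamycin peak on the gene. Its HSC3 and CAL33 peaks shared only 1 bp. Of 44 autophagy and lysosome genes only *RB1CC1*, a subunit of the ULK1 initiation complex, had such a peak, rapamycin-specific in CDS (8.08 and 24.1), with a control peak 359 bp away. None of 27 translation initiation genes had one of either kind, but only 9 of the 27 had a peak in any list. A peak in any list was found on 24 of the mTOR pathway genes and on 20 of the autophagy and lysosome genes.

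Of 40 chromatin and histone enzyme genes, *KMT2A*, *KMT2D*, *KDM6B* and *ARID1B* had rapamycin-specific CDS peaks and *EP300*, *ARID1A* and *CHD7* control-specific CDS peaks. *KDM6B* was the only one of these 7 with no peak of the other treatment on the gene. Of 40 growth factor and transcription response genes, *JUNB*, *TGIF2*, *BCL2L1* and *MCL1* had rapamycin-specific and *SMAD3* and *MCL1* control-specific peaks. Of 29 squamous and adhesion genes, *FN1* had a rapamycin-specific exon peak (10.9 and 8.04) and *SPARC* a control-specific CDS peak (137 and 93.6). A peak in any list was found on 33 of the chromatin, 27 of the growth factor and 17 of the squamous and adhesion genes. mRNA of *SPARC*, a matrix glycoprotein, was 113 and 239 CPM in the libraries numbered 1 and 0.274 and 0.845 CPM in those numbered 2, although the CAL33 list held its peak. Its change was -1.19 ± 0.32 with the block (edgeR, adjusted p = 0.0215), and without the block it turned to 6.0 when control replicate 1 was left out. A gene that was tested for mRNA was under 1 CPM in the same-treatment library numbered 1 for 4 rapamycin-specific and 5 control-specific peaks, and in that numbered 2 for 1 and 7 peaks.

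Peaks of both kinds at different sites were found on 16 of 550 genes: *GNA11*, *RRAGC*, *MCL1*, *SURF6*, *ANKRD50*, *SON*, *VIRMA*, *DAG1*, *MSL2*, *VCPIP1*, *PLEC*, *EXOC3*, *ZBTB40*, *FAM111B*, *KIAA1671* and *ABCF1*. On *MCL1*, which encodes an anti-apoptotic BCL2 family protein, 2 rapamycin-specific peaks lay in CDS (40.6 and 19.8 in HSC3, matching 1 CAL33 peak at 4.47) and a control-specific peak in the 3′UTR (5.59 in HSC3 and 321 in CAL33). On *MSL2*, an E3 ligase of a histone acetyltransferase complex, the rapamycin-specific peak was in the 5′UTR (82 and 118) and the control-specific peak in an exon (16.8 and 46.8, the CAL33 match overlapping a rapamycin peak of HSC3). On *EXOC3*, an exocyst subunit, the rapamycin-specific peak was in CDS (5.91 and 13.8, the CAL33 match overlapping a control peak of CAL33) and the control-specific peak in the 3′UTR (107 and 70.2).

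Genes with several control-specific peaks included *JADE2*, *ARHGEF5*, *PHRF1*, *ZNF638*, *FAT1*, *FOXM1*, *CRYBG1*, *ADGRL2*, *SOGA1*, *ANKRD50*, *RER1*, *NR2F6*, *KLHL21*, *CASKIN1*, *VCPIP1*, *PLEC*, *YOD1* and *BRD3OS*. On *JADE2*, part of a histone acetyltransferase complex, peaks lay in CDS (460 and 4.54) and in the 3′UTR (118 and 294), so that the line with the higher enrichment differed between the sites. *FOXM1*, a transcription factor of the cell cycle, had peaks in CDS (4.67 and 385) and in the 3′UTR (6.81 and 2.23), and the CAL33 match at 385 overlapped rapamycin peaks of both lines. Genes with more than 1 rapamycin-specific peak included *LRFN3*, *MCL1*, *SERTAD3*, *CITED4* and *TOPORS*. *LRFN3* had one in CDS (148 and 24.1) and one in the 5′UTR (71.1 and 16.1), and the CAL33 match of the latter overlapped a control peak of CAL33.

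RNA-seq was not used by the rule. Peak calls rest on reads of the same transcripts, however, so membership and mRNA level may not be independent. The mRNA of the genes was compared between treatments in the edgeR quasi-likelihood fit of all 15826 genes that passed the count filter. Of the 249 genes with a rapamycin-specific peak 230 were tested, and of the 317 with a control-specific peak 310. Without the replicate number as a block, 0 of 15826 genes (0%) were called at an adjusted p of 0.05, 0 of them with a treatment-specific peak, and the adjusted p was 0.9997 for each of these genes. At an unadjusted p under 0.05, 8 of 230 and 15 of 310 genes passed, against 2.82% of all genes tested. DESeq2 without a block called 2 of 199 and 3 of 271 genes with an adjusted p, against 0.463% of all. On simulated counts with 200 changed genes, the fit without the block recovered 0 and the fit with it 96, with 13 false calls among 15464 genes. These counts were drawn from the means of each replicate number and with dispersions estimated with the block. The better recovery with the block was thus built in, and the simulation cannot show whether the block is right for these libraries.

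With the block, edgeR called 17 of 230 genes with a rapamycin-specific peak higher with rapamycin (7.39%, against 4.65% of all genes tested) and 8 lower (3.48%, against 3.5%). Of 310 genes with a control-specific peak, 9 were called higher (2.9%) and 28 lower (9.03%). Among all 5604 tested genes with a peak in any list, 5.16% were called higher and 4.78% lower. Genes with a control-specific peak were lower with rapamycin in both numbered pairs in 170 of 310 cases (54.8%, against 31.8% of all genes and 38.3% of genes with any peak) and higher in both in 58 (18.7%, against 34.6% and 30.1%). Both rapamycin libraries were below both controls in 95 (30.6%, against 16.5% of all genes) and above them in 22 (7.1%, against 15%). Genes with a rapamycin-specific peak were higher in both pairs in 85 of 230 cases (37%) and lower in both in 77 (33.5%). Both rapamycin libraries were above both controls in 34 of the 230 and below them in 40.

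The median log2 change without the block was -0.22 for genes with a control-specific peak (-0.18 in pair 1 and -0.26 in pair 2), 0.032 for genes with a rapamycin-specific peak (-0.046 and 0.11), -0.051 for genes with any peak and 0.059 for all genes tested. Without rapamycin replicate 2 the rapamycin-specific median was -0.11, and without control replicate 1 it was -0.065. The median of the control-specific genes was therefore below that of genes with any peak, and that of the rapamycin-specific genes was above it but below that of all genes. For rapamycin-specific peaks with no control peak on the gene the median was 0.22 over 97 genes, of which 44 were higher in both pairs and 26 lower. For those with a control peak elsewhere on the gene it was -0.06 over 133 genes, of which 41 were higher and 50 lower. Control-specific genes had medians of -0.25 over 137 genes and -0.20 over 173 in the corresponding classes. The part of mRNA level in whether a peak was called was not tested.

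**Figure D4:**
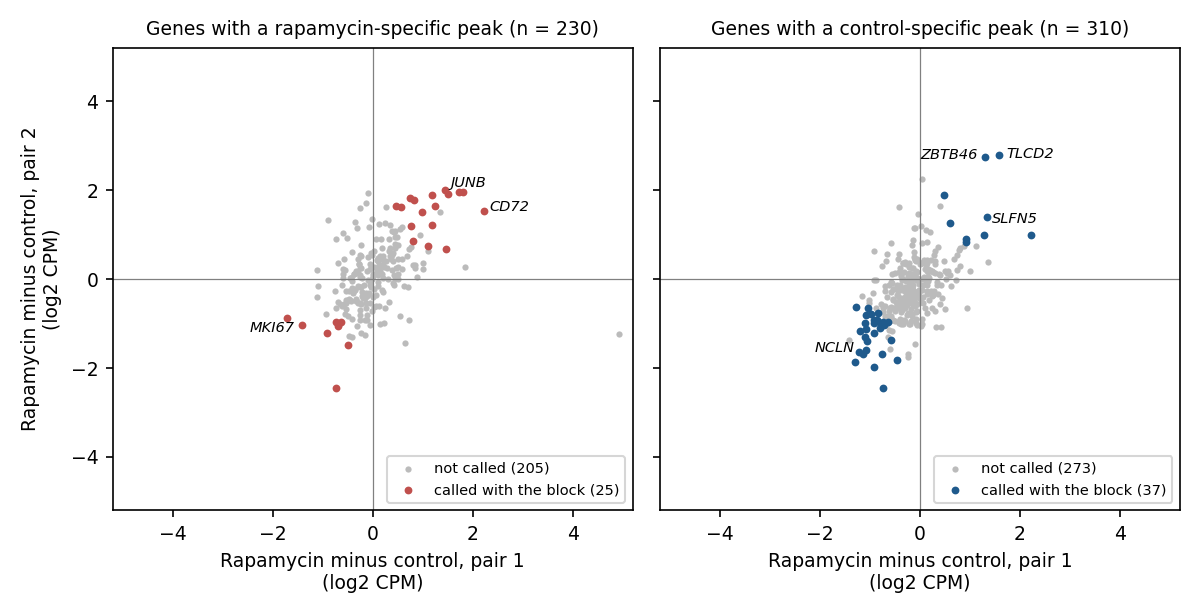
Log2 difference in mRNA (CPM) between rapamycin and control in pair 1 (horizontal) and pair 2 (vertical), 1 point per tested gene with a rapamycin-specific (left, n = 230) or control-specific peak (right, n = 310). Coloured points, 25 and 37, were called by edgeR with the replicate block and grey points were not; on the right, 170 of 310 points lie in the lower left quadrant.

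Among genes with a rapamycin-specific peak, *JUNB*, an AP-1 transcription factor, had 238 and 327 CPM in rapamycin replicates 1 and 2 and 86.9 and 81 CPM in the controls. The groups did not overlap, and the log2 change was 1.73 ± 0.27 (SE) with the block (edgeR, adjusted p = 0.000467) and 1.75 ± 0.32 without it (adjusted p = 0.9997). Its peak lay in CDS at chr19:12791973-12792361 (290 and 9.44), 118 bp from a control peak. *KDM6B*, with its leading peak, had 95.9 and 145 CPM with rapamycin and 48.1 and 50.7 CPM without, again with no overlap. Its change was 1.25 ± 0.26 with the block (edgeR, adjusted p = 0.00523). *KDM7A*, another histone demethylase gene, had 16.1 and 15 CPM against 4.29 and 3.46 CPM, a change of 2.01 ± 0.42 (edgeR with the block, adjusted p = 0.00456), and its 3′UTR peak (75.6 and 182) was on a gene with no control peak. *NR4A1*, an immediate early nuclear receptor, had 40.2 and 19.4 CPM against 13.9 and 4.73 CPM, and *PCED1B* 6.31 and 9.76 CPM against 1.57 and 2.15 CPM. Their changes were 1.78 ± 0.34 and 2.09 ± 0.50, and without the block that of *NR4A1* was 1.03 without rapamycin replicate 1 and 2.59 without control replicate 1.

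The highest change was that of *CD72*, at 3.58 and 1.54 CPM against 0.369 and 0.211 CPM (3.06 ± 0.70), whose peak is listed at the same place and with the same enrichment as that of *TESK1* on the other strand. *TESK1* had 69.5 and 104 CPM against 53.2 and 70.8 CPM, and its groups overlapped. The lincRNA *AL109976.1* had 0.736 and 11.4 CPM against 0.0462 and 2.75 CPM (2.42 ± 0.63), with overlapping groups. *RHOB* had 204 and 32.3 CPM against 94 and 19.1 CPM, so that both pairs rose while the groups overlapped (0.94 ± 0.26). Named after its values were seen, *TNFAIP3*, a ubiquitin-editing inhibitor of NF-κB, had 262 and 98.9 CPM against 94.5 and 62 CPM (1.07 ± 0.27). The other genes called higher with the block were *ATP2B4*, *TMEM44*, *PCDH1*, *PDGFB*, *R3HDM2*, *WNT7B*, *PIM3* and *DNAJB9*, with changes from 0.84 to 1.52. Without the block, the change of *TNFAIP3* was 0.31 without rapamycin replicate 1, and those of *WNT7B*, *TMEM44* and *R3HDM2* were 0.06, 0.04 and 0.25 without rapamycin replicate 2. In the same fits, leaving out 1 rapamycin library turned the sign of *AL109976.1* (-0.95 without replicate 2), *RHOB* (-0.84 without replicate 1) and *PDGFB* (-1.06 without replicate 1), and leaving out control replicate 2 that of *PDGFB* (-0.20).

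Of the 8 genes called lower, *MKI67*, the proliferation marker Ki-67, had 369 and 452 CPM with rapamycin against 982 and 931 CPM. Its change was -1.23 ± 0.26 with the block (edgeR, adjusted p = 0.00571), and its CDS peak had 21.9 and 2.8. The control lists held 8 peaks elsewhere on *MKI67*. *PTDSS1*, a phosphatidylserine synthase, had 52.4 and 139 CPM against 174 and 257 CPM (-1.31 ± 0.27), and *SLC25A32*, a mitochondrial folate carrier, 37 and 14.2 CPM against 52.3 and 40.9 CPM (-1.01 ± 0.31). *RFWD3* was the remaining one with rapamycin-specific peaks alone. *FAM111B*, *ZBTB40*, *ABCF1* and *SON* carried peaks of both kinds, and *FAM111B* had 42.9 and 6.25 CPM against 71.4 and 36.2 CPM (-1.60 ± 0.40). Leaving out 1 rapamycin library without the block gave -3.13 (replicate 1) and -0.35 (replicate 2) for *FAM111B*, -0.65 and -2.06 for *PTDSS1*, and -1.74 and -0.35 for *SLC25A32*.

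**Figure D5:**
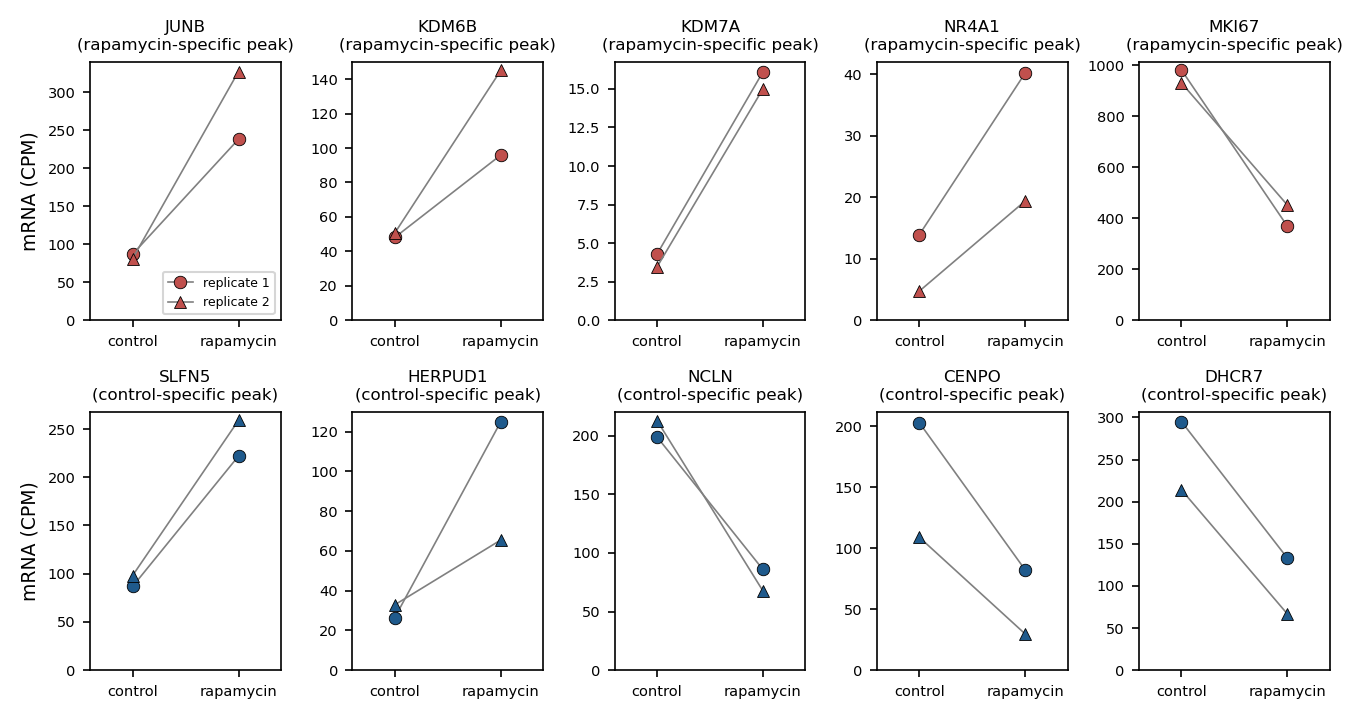
mRNA level (vertical axis, CPM from 0) in the control and rapamycin libraries of replicates 1 (circles) and 2 (triangles), joined by number, for 5 genes with a rapamycin-specific peak (top) and 5 with a control-specific peak (bottom). The 10 genes were picked from those called with the block. In each of them both rapamycin libraries lie on the same side of both controls, above them in 6 genes and below them in *MKI67*, *NCLN*, *CENPO* and *DHCR7*. This follows from the choice, as other called genes such as *WNT7B* and *HES1* had overlapping groups. Of all genes tested, 15% had both rapamycin libraries above both controls and 16.5% below.

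Among genes with a control-specific peak, *NCLN*, which encodes nicalin of the endoplasmic reticulum membrane, had 85.9 and 67.6 CPM with rapamycin and 199 and 213 CPM in the controls. The groups stood well apart, with a change of -1.43 ± 0.26 with the block (edgeR, adjusted p = 0.00176). Its CDS peak at chr19:3207469-3207876 had 115 in HSC3 and 1610 in CAL33. *CENPO*, a centromere protein, had 82.2 and 29.7 CPM against 203 and 109 CPM (-1.59 ± 0.27), and *FEN1*, the flap endonuclease of DNA replication, 146 and 43.9 CPM against 276 and 174 CPM (-1.45 ± 0.29). *DHCR7*, which catalyses the last step of cholesterol synthesis, had 133 and 66.7 CPM against 295 and 214 CPM (-1.41 ± 0.27), and its 3′UTR peak (101 and 2.53) was on a gene with no rapamycin peak. In these genes both rapamycin libraries were below both controls. The rapamycin lists held 2 peaks elsewhere on *NCLN*, 3 on *CENPO* and 4 on *FEN1*. Without the block and without rapamycin replicate 2, the change was -0.94 for *CENPO* and -0.65 for *FEN1*, and without rapamycin replicate 1 it was -2.42 and -2.38.

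Chosen after their values were seen, *HMGCS1*, of the sterol pathway, had 42.6 and 53 CPM against 88.8 and 141 CPM (-1.23 ± 0.26), and *MCM3*, of the replicative helicase, 200.0 and 158 CPM against 338 and 510 CPM (-1.22 ± 0.28). *PHRF1* had 81.4 and 81.5 CPM against 171 and 179 CPM (-1.10 ± 0.25, edgeR with the block, adjusted p = 0.00834). It had 2 control-specific CDS peaks in HSC3, which matched 1 CAL33 peak, and no rapamycin peak. *JADE2* and *FOXM1* changed by -0.95 ± 0.27 and -0.84 ± 0.26, and without the block that of *JADE2* was -0.25 without rapamycin replicate 1 and -1.84 without replicate 2. Among the remaining genes called lower were *MSH6*, *KEAP1*, *UMPS*, *PHB*, *BCLAF1*, *TAOK2*, *BPTF* and *SPARC*. Of the 28, 7 had no rapamycin peak on the gene.

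The 9 genes with a control-specific peak that were called higher were *TLCD2*, *ZBTB46*, *HERPUD1*, *SLFN5*, *HES1*, *ATP9A*, *SMAD3*, *EHF* and *TIPARP*. *SLFN5* had 222 and 259 CPM with rapamycin against 86.8 and 98.1 CPM (1.38 ± 0.26; edgeR with the block, adjusted p = 0.00207), and the CAL33 match of its control-specific CDS peak overlapped a rapamycin peak of HSC3. *HERPUD1*, an endoplasmic reticulum stress gene, had 125 and 65.5 CPM against 26.5 and 32.9 CPM (1.62 ± 0.31), and *ZBTB46*, a zinc finger transcription factor gene, 16.6 and 22.4 CPM against 6.42 and 2.92 CPM (2.14 ± 0.44). *TLCD2* had 10.6 and 29 CPM against 3.19 and 3.8 CPM (2.34 ± 0.43). *HES1*, a NOTCH target, had 29.7 and 124 CPM against 21 and 33.2 CPM, with overlapping groups (1.20 ± 0.33). *SMAD3*, of TGF-β signalling, had 241 and 420 CPM against 159 and 175 CPM (0.93 ± 0.26). Without the block and without rapamycin replicate 2, the change was 0.11 for *HES1*, 0.51 for *SMAD3* and 1.58 for *TLCD2*.

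Over the whole of each gene list, with or without a treatment-specific peak, edgeR with the block called 9 of 37 tested growth factor and transcription response genes higher and 0 lower, 6 of 43 autophagy and lysosome genes higher and 0 lower, and 4 of 41 mTOR pathway genes higher and 1 lower, where 4.65% of all genes tested were called higher and 3.5% lower. In the translation initiation list 0 of 27 were higher and 4 lower. The m6A machinery had 1 of 22 higher and 1 lower, chromatin enzymes 2 of 40 higher and 1 lower, and the squamous and adhesion list 2 of 29 higher and 4 lower. Without the block 0 genes of any list were called. The lists were chosen with earlier results of these data known, so the counts describe the lists and do not test them.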

How the data were processed

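Peak lists and RNA-seq counts were taken as deposited. Per the submitters' processing notes, cutadapt 2.5, HISAT2 2.1.0, featureCounts 1.6.3, HOMER 4.10.4 and hg38 were used; the peak caller is not given in the sources used here. The authors called peaks on each IP and input pair, and each deposited list gives a fold enrichment (a ratio) with its p-value and false discovery rate, both as log10. A score column of the deposited lists was not used. The deposited RNA-seq values are raw counts per gene. The depth of the MeRIP-seq libraries is unknown.

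Peaks were compared over their exonic blocks in Python 3.11.15 with scipy 1.17.1, and the rule was tested on simulated lists. Positions are counted from 1. RNA-seq counts were fitted by edgeR 4.0.16 in R 4.3.3 (filterByExpr, TMM, robust quasi-likelihood test, Benjamini-Hochberg adjustment over all genes, threshold 0.05), and SE is the change divided by the square root of F. CPM are from edgeR, and differences within pairs are of log2(CPM + 0.5). Alternatives were the replicate number as a block, DESeq2 1.42.0, upper-quartile normalization, 2 other count filters, each library left out and other overlap rules.

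The replicate number was used as a block because a number marks a cell line in MeRIP-seq; the line named in the RNA-seq labels goes against this. The difference of replicates 1 and 2 with rapamycin correlated with that of the controls (r = 0.885 across 15826 genes, which are not independent). The common dispersion was 0.636 without and 0.061 with the block.

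The members and the 7 gene lists were chosen with earlier results of these data known. Named are, per group, the 10 genes with the highest smaller enrichment (false discovery rate at most 0.05 in both lines), genes with several peaks, in both groups or in a gene list, the 5 highest and 5 lowest mRNA changes among called genes, and the 3 nearest peaks on each side of the limit; some genes that fell under this rule are not reported here.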

Additional observations from a re-analysis of the deposited data

How the results depend on the processing

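The number of treatment-specific peaks stayed within 1.5 times under 8 of 9 planned overlap and threshold rules and when joined into loci or limited to peaks whose CAL33 match was also free of the other treatment (239 and 304), both chosen after seeing the data. Calls with the replicate block for the latter were 17 higher and 8 lower of 216 genes, and 8 higher and 26 lower of 282. The exception, no peak of the other treatment on the gene, left 115 and 147 peaks. CDS shares stayed within their intervals. Calls depended on the block: over all genes 0 without it, 1290 with it and 42 with DESeq2; for rapamycin-specific genes 0, 25 and 2, and for control-specific genes 0, 37 and 3. The pairing was not used in the other fits, which called 0, as did each fit with 1 library left out. The block was also combined with only genes with no peak of the other treatment (chosen after seeing the data). Of 97 such rapamycin-specific genes 8 were higher and 3 lower, and of 137 control-specific genes 4 were higher and 7 lower. With the block, 4.65% of all genes tested were called higher and 3.5% lower, and 5.16% and 4.78% of genes with any peak. The 50% overlap rule with the block gave 5 of 219 rapamycin-specific genes lower in place of 8 of 230.

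The median log2 change of rapamycin-specific genes was 0.22 without genes that had a control peak, and ranged from -0.11 to 0.074 when 1 library was left out. It was -0.11 without rapamycin replicate 2 and -0.065 without control replicate 1, so its sign is not settled. That of control-specific genes was -0.15 with upper-quartile normalization, which moved the median of all genes by 0.076, and ranged from -0.33 to -0.15 with 1 library left out; leaving out rapamycin replicate 1 moved the median of all genes by -0.129.

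For the 58 genes called with the block, the adjusted p was lowest with the block and reached 0.9998 in other fits; DESeq2 called *JUNB*, *MKI67*, *NCLN*, *PHRF1* and *SLFN5*. Leaving out 1 library kept the sign of 54 genes, but moved the change of 29 of them by over 1.5 times, as far as 0.04 for *TMEM44*, 0.06 for *WNT7B* and 0.11 for *HES1*. The exceptions were *AL109976.1* (-0.95 without rapamycin replicate 2, and up to 6.84), *PDGFB* (-1.06 without rapamycin replicate 1 and -0.20 without control replicate 2, and up to 3.48), *RHOB* (-0.84 without rapamycin replicate 1, and up to 2.57) and *SPARC* (6.0 without control replicate 1, and down to -8.77). The causes were not tested. With 1 IP and 1 input per line and treatment, a peak missing from a list cannot be told apart from a peak missed there.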

Other observations

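*CHAC1*, a glutathione-degrading enzyme gene induced in amino acid stress, was noticed after its values were seen. It had a rapamycin-specific CDS peak (10.9 in HSC3 and 26.8 in CAL33) and no control peak. Its mRNA was 73.4 CPM with rapamycin and 1.94 CPM without in the libraries numbered 1, and 8.94 and 21.6 CPM in those numbered 2, so that the pairs moved in opposite directions. The difference between pairs was not tested.

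Symbols beginning with ZNF were found for 4 of 259 rapamycin-specific and 16 of 336 control-specific peaks. Their share among all peaks of the HSC3 lists was not counted here, so no excess in either group can be read from these counts. Enrichment values repeat within a list: an HSC3 enrichment of 30.1 was given to 10 rapamycin-specific peaks and one of 11.2 to 19 control-specific peaks.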
